A study of Homo sapiens with 4 samples.

Results

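The genes described here are the 3 GADD45 genes (GADD45A, GADD45B and GADD45G) and 7 kinases of the cascade below them: MAP3K4, MAP2K3, MAP2K4, MAP2K6, MAP2K7, MAPK14 and MAPK8. They were chosen by name. All 10 were found by symbol among the 26601 genes listed in all 4 files, and 9 of the 10 reached a mean of 1 RPKM (reads scaled by gene length and by the depth of the library) and were tested. RNA was sequenced from MOLM-13 cells, a human line established from an acute myeloid leukaemia. In 2 libraries the cells were untreated, and in the other 2 they had received doxycycline (labelled 1 mg/ml) for 4 days to overexpress GADD45G. These groups are called untreated control and GADD45g induced. The sources used here call the 2 libraries of a group biological replicate experiments and do not name the promoter or vector, or say whether the line was a clone. Doxycycline and GADD45G differed together between the groups and cannot be told apart. No doxycycline-treated cells lacking the construct were among the libraries used here.

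GADD45 proteins are small, acidic stress proteins without enzyme activity of their own. They bind the kinase MAP3K4 (also called MTK1) and relieve its autoinhibition. MAP3K4 then phosphorylates the MAP2 kinases, of which MAP2K3 and MAP2K6 activate p38 kinases, MAP2K7 activates JNK kinases and MAP2K4 can activate either. MAPK14 encodes p38 alpha and MAPK8 encodes JNK1. The RNA level of a kinase does not measure its phosphorylation, which is how the cascade carries its signal.

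Since GADD45G was expressed at a very high level, sequence shared with its relatives was examined first. In GENCODE release 29 no stretch of 36 bases of a GADD45A, GADD45B or GADD45G transcript was found in a transcript of any other gene, on either strand. The longest runs that each pair shared lay in the coding sequence and are shown because they are the stretches most alike in these genes. Capitals mark the 9 bases that GADD45A shared with both others, at coding base 253 of GADD45A.
GADD45A and GADD45G: tgctgcgagAACGACATC
GADD45A and GADD45B: AACGACATCaacatc
GADD45B and GADD45G: ggacgcctggaag
The runs were 18, 15 and 13 bases long. The kinases were less distinct. Of 36-base windows, 9.87% of those of MAP2K4 and 9.51% of those of MAP2K7 also occurred in another gene, mostly in the pseudogene MAP2K4P1 for the first and in an antisense gene, ENSG00000268149, for the second. The share was 4.32% for MAP3K4, 3.69% for MAP2K3, 1.02% for MAPK8 and 0.98% for MAP2K6, and MAPK14 had 0 such windows. ENSG00000268149, which covers 438 exonic bases of MAP2K7, was at 11.9 to 16.5 RPKM in the 3 complete files. MAP3K4-AS1 covers 357 exonic bases of MAP3K4 and was at 1.05 to 1.95 RPKM. No source used here says how reads were assigned where genes overlap or are near-identical, so the levels of MAP2K7, MAP2K4 and MAP3K4 are uncertain to this extent.

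The upstream sequence is shown for the 3 genes whose change passed the test described below. Each is the 250 bases before the RefSeq start site (GRCh38.p14, forward strand), with capitals for matches to a CCAAT box (these letters), the NF-kB consensus or a TATA box (searched as TATAAA).
GADD45G, chr9:89604762-89605011: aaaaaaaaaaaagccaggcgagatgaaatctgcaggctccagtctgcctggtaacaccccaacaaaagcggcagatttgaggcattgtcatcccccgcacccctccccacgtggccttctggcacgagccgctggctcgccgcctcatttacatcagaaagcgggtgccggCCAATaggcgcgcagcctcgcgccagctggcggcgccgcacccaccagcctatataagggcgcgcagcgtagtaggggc
GADD45B, chr19:2475877-2476126: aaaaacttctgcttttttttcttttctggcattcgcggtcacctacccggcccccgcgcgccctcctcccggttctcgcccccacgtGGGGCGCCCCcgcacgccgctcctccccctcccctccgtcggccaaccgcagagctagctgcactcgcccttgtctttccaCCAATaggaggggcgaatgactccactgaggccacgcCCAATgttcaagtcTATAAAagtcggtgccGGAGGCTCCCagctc
MAP3K4, chr6:160991519-160991768: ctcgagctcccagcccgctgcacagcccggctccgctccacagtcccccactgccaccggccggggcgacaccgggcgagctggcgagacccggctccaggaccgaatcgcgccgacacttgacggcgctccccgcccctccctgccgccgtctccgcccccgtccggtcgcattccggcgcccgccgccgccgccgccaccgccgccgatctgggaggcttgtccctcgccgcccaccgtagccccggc
GADD45B had 2 CCAAT boxes, starting 82 and 45 bases before the start site, a TATA box 31 bases before it, and 2 matches to the NF-kB consensus, 163 and 15 bases before it. GADD45G had 1 CCAAT box, 79 bases before the start site, and 0 matches to TATAAA. Letters close to TATAAA, such as tatataag in the GADD45G sequence, were not counted. MAP3K4 had 0 matches to any of them, and none of the 3 genes matched the AP-1 site (TGANTCA) or the cAMP response element (TGACGTCA). Both strands were searched, and no match overlapped one of another motif. Over 35116 promoters, 32.0% held a CCAAT box in this window, 10.7% a TATA box, 9.96% the NF-kB consensus, 6.57% the AP-1 site and 1.65% the cAMP response element. A match describes the letters only. Gene-level RPKM cannot tell reads of the expressed construct from reads of the GADD45G gene itself.

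The libraries held 15683931 to 18895470 reads, as recovered from the RPKM values, which makes 1 read worth 0.0529 to 0.0638 RPKM for a transcript of 1 kb. Myeloid genes were present in each library: SPI1 had 68.7 and 74.7 RPKM in the controls and 101.4 and 84.0 RPKM after induction. CD33 had 17.6 and 21.5 RPKM in the controls and 12.5 and 13.7 RPKM after induction, without overlap, and was not called. The leukocyte gene PTPRC (CD45) had 25.1 and 23.9 RPKM in the controls and 28.5 and 36.1 RPKM after induction, and neither it nor SPI1 was called. The granule gene MPO stayed at 0.162 to 0.278 RPKM, and the receptor gene FLT3 was at 0.958 and 1.19 RPKM in the controls and 0.0889 and 0.0451 RPKM after induction. The 8 myeloid markers summed to 1339 and 1020 RPKM in the controls and 442 and 404 RPKM after induction. LYZ alone, the 1 of the 6 tested markers that was called, went from 1173 and 868 RPKM to 268 and 242 RPKM. CD33, HOXA9 and MEIS1 had log2 changes of -0.53, -0.43 and -0.41, with groups that overlapped for HOXA9. SPI1 and PTPRC went the other way, at 0.36 and 0.37. The median log2 change of the 6 tested myeloid markers was -0.42. The 8 listed lymphoid and erythroid markers summed to 327 and 345 RPKM, against 154 and 136 RPKM, nearly all from NKG7, while HBA1 was at 0. In bulk RNA, fewer cells of a type and less RNA per cell cannot be told apart. The first library of each group differed from the other in 10 epithelial markers, which summed to 43.5 RPKM in untreated control 1 and 42.8 RPKM in GADD45g induced 1, against 0.773 and 0.510 RPKM in untreated control 2 and GADD45g induced 2. EPCAM and KRT19 were at 0 in the latter pair of libraries. The part of these markers in the results was not tested. Control 1 and induced 1 held the epithelial transcripts, and control 2 and induced 2 held few. The difference within each of these pairs is given below for GADD45G, GADD45B, GADD45A, MAP3K4 and MAPK8. The plot of log2 changes shows both differences for all tested genes of the GADD45 family and cascade. For other genes these differences are not given. The median log2 change over the 10771 tested genes was -0.21, and it lay between -0.061 and 0.005 after other scalings.

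Of the 9 tested genes, 1 rose and 2 fell after induction at an adjusted p under 0.05 (limma, adjusted over all tested genes). GADD45G rose, and GADD45B and MAP3K4 fell. Among all tested genes 12.2% rose and 26.7% fell, and 38.9% did either. The 22.2% of these genes that fell was near that background. The 11.1% that rose is GADD45G alone, the gene the cells were made to overexpress, so it cannot be read against the background. No other of these genes was called higher. The RPKM values of the groups did not overlap for 6 of the 9, where 70.0% of all tested genes had groups that did not overlap. The plot of RPKM by library shows each gene.

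**Figure D1:**
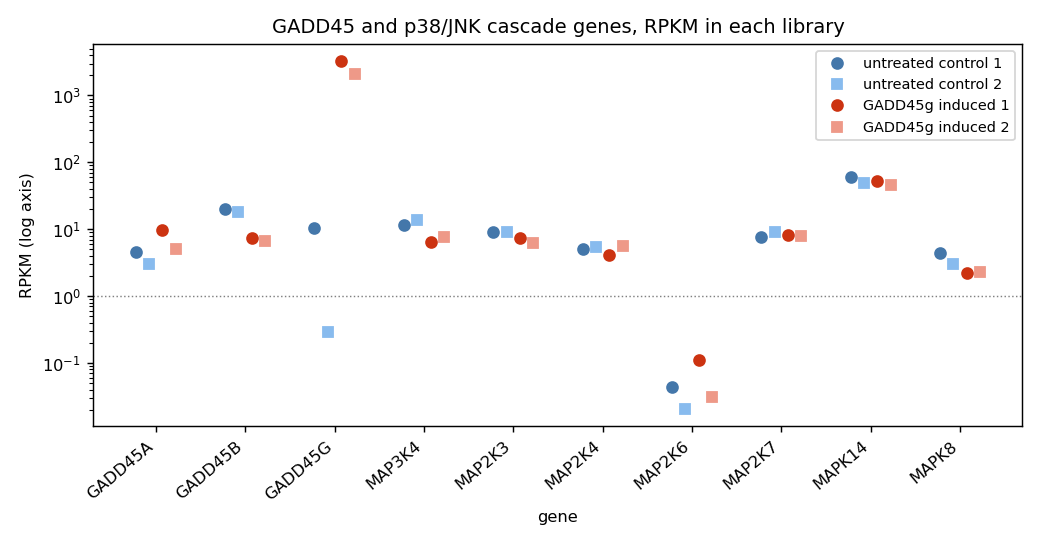
RPKM on a log axis for each of the 10 genes, with 1 point per library (2 untreated control, 2 GADD45g induced) and a dotted line at 1 RPKM, the minimum mean for testing. GADD45G reaches 3236 and 2118 RPKM after induction, MAP2K6 lies below 0.2 RPKM in each library, and MAPK14 is the highest of the kinases.

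GADD45G (ENSG00000130222), the expressed gene, had 10.5 and 0.289 RPKM in untreated controls 1 and 2, and 3236 and 2118 RPKM in the induced libraries 1 and 2. Both induced values lay far above both controls. The log2 change was 9.41 ± 0.73 (SE, 2 libraries per group; limma adjusted p = 9.74e-06). The induced transcript took up 0.428% and 0.280% of all reads and ranked 13 and 12 among the 26601 listed genes, against ranks of 4292 and 12681 in the controls. The controls differed from each other 36.3-fold, with 261 and 6 reads, while the induced libraries differed 1.53-fold. As a share of the induced library with the same suffix, the control level was 0.325% in control 1 and 0.0137% in control 2. Within the pairs of libraries named above the changes were 8.14 and 10.68 on the log2(RPKM + 1) scale. The value was 7.83 without untreated control 2 and 10.99 without untreated control 1, and it passed the threshold in both cases (limma adjusted p = 0.00153 and 0.00087).

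GADD45B (ENSG00000099860), a member that NF-kB and TGF-beta signalling can induce, had 19.8 and 18.3 RPKM in the controls and 7.5 and 6.62 RPKM in the induced libraries. Each control lay above each induced value. The mean fell 2.70-fold, from 19.0 ± 1.08 to 7.06 ± 0.62 RPKM (log2 change -1.32 ± 0.22, limma adjusted p = 0.000906). The change was -1.29 in the libraries with epithelial transcripts and -1.34 in those with few. GADD45B passed the threshold under all 16 alternative settings, with log2 changes from -1.43 to -0.996.

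GADD45A (ENSG00000116717), a member induced by DNA damage, had 4.63 and 3.05 RPKM in the controls and 9.59 and 5.08 RPKM after induction. The groups did not overlap, but the lower induced value was close to the higher control, at 168 and 180 reads. Counting intervals (95%, exact Poisson) for these libraries were 4.34 to 5.91 RPKM for GADD45g induced 2 and 3.98 to 5.36 RPKM for untreated control 1, and they overlapped. The mean was 1.91 times the control mean, and the difference did not pass the threshold (log2 change 0.75 ± 0.29, 95% interval 0.11 to 1.39, limma adjusted p = 0.0628). The change was 0.91 between the first libraries of each group and 0.59 between the others. It was 0.35 without GADD45g induced 1 and 1.15 without GADD45g induced 2, and only the latter passed (adjusted p = 0.490 and 0.0273). GADD45A also passed after each of the 4 other scalings (0.0191 to 0.0236), with a filter at 5 RPKM, with a robust prior and with voom on recovered reads.

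The makeup of the family differed between the groups. In the controls GADD45B made up 56.7% and 84.6% of the summed GADD45 RPKM, GADD45A 13.3% and 14.1%, and GADD45G 30.1% and 1.34%. After induction GADD45G made up 99.5% in both libraries, of sums of 3253 and 2129 RPKM. Leaving GADD45G out, the ratio of GADD45A to GADD45B was 0.234 and 0.167 in the controls and 1.28 and 0.768 after induction. This ratio does not change when all RPKM of a library are multiplied by the same factor, though quantile normalization can change it. The groups did not overlap in this ratio. It was not tested.

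MAP3K4 (ENSG00000085511), the kinase that GADD45 proteins bind, had 11.6 and 13.5 RPKM in the controls and 6.4 and 7.63 RPKM after induction. Both induced values lay below both controls. The mean fell 1.79-fold, from 12.6 ± 1.35 to 7.01 ± 0.87 RPKM (log2 change -0.76 ± 0.22, limma adjusted p = 0.0196). The change was -0.77 in the libraries with epithelial transcripts and -0.75 in those with few. The call ended after each of the 4 other scalings (log2 change -0.60 to -0.53, adjusted p = 0.0581 to 0.0868), when low genes were kept (0.0673), and without untreated control 2 (0.0783), GADD45g induced 1 (0.154) or GADD45g induced 2 (0.0621). GADD45G RPKM per RPKM of MAP3K4 was 0.905 and 0.0214 in the controls and 506 and 278 after induction.

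Of the 3 tested MAP2 kinases, 0 were called in either direction by limma, 0 had an unadjusted p under 0.05, and 0 were called with voom. MAP2K3 (ENSG00000034152), a p38 activator, had 9.02 and 9.13 RPKM in the controls and 7.26 and 6.32 RPKM after induction. The groups did not overlap, and the difference did not pass (log2 change -0.37 ± 0.21, 95% interval -0.85 to 0.10, limma adjusted p = 0.193). It was -0.22 to -0.14 after the 4 other scalings. The other p38 activator, MAP2K6 (ENSG00000108984), was close to absent, at 0.0435 and 0.0208 RPKM in the controls and 0.112 and 0.0307 RPKM after induction. These values fit as few as 5, 2, 13 and 3 reads, so no fold is given, and a difference was not detectable at this depth. MAP2K3 lay far above it in each library.

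MAP2K4 (ENSG00000065559), which can act on p38 and JNK, had 5.03 and 5.39 RPKM in the controls and 4.12 and 5.63 RPKM after induction, and the groups overlapped. Its log2 change was -0.09 ± 0.22 (95% interval -0.59 to 0.40, limma adjusted p = 0.778), and its sign turned under the 4 other scalings. MAP2K7 (ENSG00000076984), the JNK-specific activator, had 7.60 and 9.01 RPKM in the controls and 8.28 and 8.0 RPKM after induction, also overlapping. Its log2 change was -0.02 ± 0.22 (95% interval -0.50 to 0.46, limma adjusted p = 0.947), and its sign turned under the same scalings.

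MAPK14 (ENSG00000112062), p38 alpha, was the most abundant of the 7 kinases, with 61.0 and 49.1 RPKM in the controls and 52.2 and 45.9 RPKM after induction. The groups overlapped, and the values rested on 5002 to 7823 reads a library. Its log2 change was -0.16 ± 0.24 (95% interval -0.70 to 0.38, limma adjusted p = 0.642), with a sign that turned under 3 of the 4 other scalings. MAPK8 (ENSG00000107643), JNK1, had 4.37 and 3.0 RPKM in the controls and 2.19 and 2.28 RPKM after induction. Both induced values lay below both controls, and the difference did not pass (log2 change -0.52 ± 0.23, 95% interval -1.02 to -0.01, limma adjusted p = 0.0965). MAPK8 passed without untreated control 2 (log2 change -0.73, adjusted p = 0.0434) and with voom on recovered reads (0.0398). The change was smaller without untreated control 1 (-0.31, adjusted p = 0.295) and after the 4 other scalings (-0.39 to -0.23, adjusted p = 0.214 to 0.471). The change was -0.75 in the libraries with epithelial transcripts and -0.29 in those with few.

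**Figure D2:**
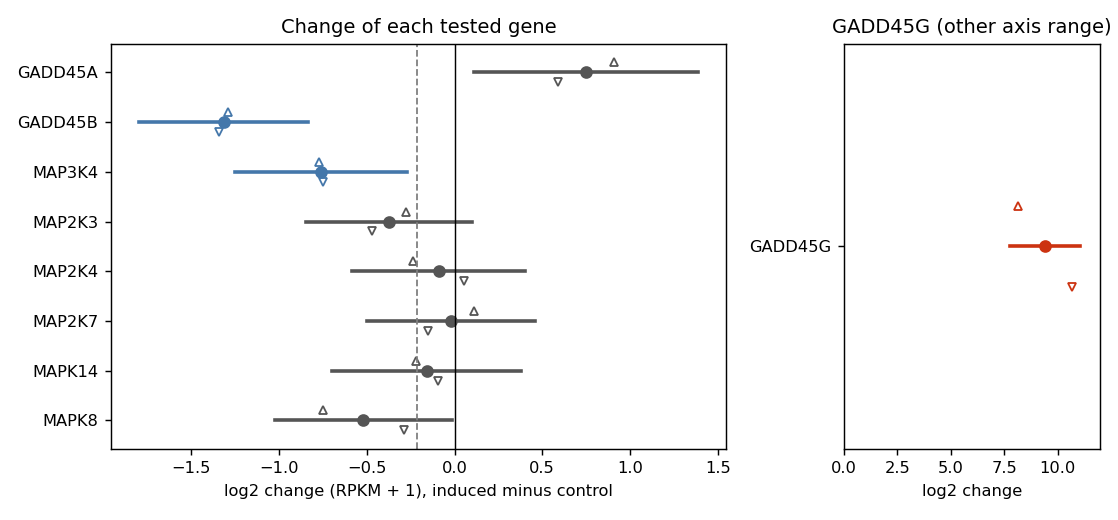
Log2 change in RPKM + 1 (induced minus control) of the 9 tested genes, with GADD45G on an axis of its own; circles are limma estimates, bars 95% intervals, and triangles pointing up and down the differences between the first and between the other libraries of each group. Red marks a rise and blue a fall that passed the threshold, and the dashed line is the median of all tested genes (-0.21); GADD45B and MAP3K4 lie to its left with nearly equal triangles.

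In order of mean control level the kinases stood at 55.0 ± 8.47 RPKM for MAPK14, 12.6 ± 1.35 for MAP3K4, 9.08 ± 0.08 for MAP2K3, 8.3 ± 0.999 for MAP2K7, 5.21 ± 0.25 for MAP2K4, 3.68 ± 0.96 for MAPK8 and 0.032 ± 0.016 for MAP2K6 (SD, n = 2). MAP2K3 and MAP2K7 differed by less than the spread of MAP2K7. After induction the order was MAPK14 (49.1 ± 4.49 RPKM), MAP2K7 (8.14 ± 0.20), MAP3K4 (7.01 ± 0.87), MAP2K3 (6.79 ± 0.66), MAP2K4 (4.88 ± 1.07), MAPK8 (2.24 ± 0.06) and MAP2K6 (0.071 ± 0.058). The values of MAP3K4 and MAP2K3 overlapped among the induced libraries.

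The isoforms of each kinase were compared by RPKM, which is per length. MAPK14 made up 83.8% and 77.6% of the summed p38 RPKM in the controls and 82.2% and 83.1% after induction. Beneath it, p38 gamma (MAPK12) fell from 8.02 and 9.75 RPKM to 4.62 and 3.18 RPKM (log2 change -1.02 ± 0.23, limma adjusted p = 0.00578), though not without GADD45g induced 2 (0.0843) or with no filter (0.0672). In the other direction p38 delta (MAPK13) rose from 2.86 and 3.75 RPKM to 6.20 and 5.76 RPKM (log2 change 0.71 ± 0.22, limma adjusted p = 0.0259). That call ended without untreated control 1 (0.108), GADD45g induced 1 (0.165) or GADD45g induced 2 (0.114), and with no filter (0.105). The ratio of MAPK12 to MAPK13 was 2.80 and 2.60 in the controls and 0.744 and 0.552 after induction, without overlap. Of the JNK genes, MAPK9 (JNK2) was above MAPK8 in each library, at 63.2% and 67.9% of the JNK sum in the controls and 72.6% and 71.8% after induction. MAPK10 (JNK3) was at 0 to 0.0216 RPKM.

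**Figure D3:**
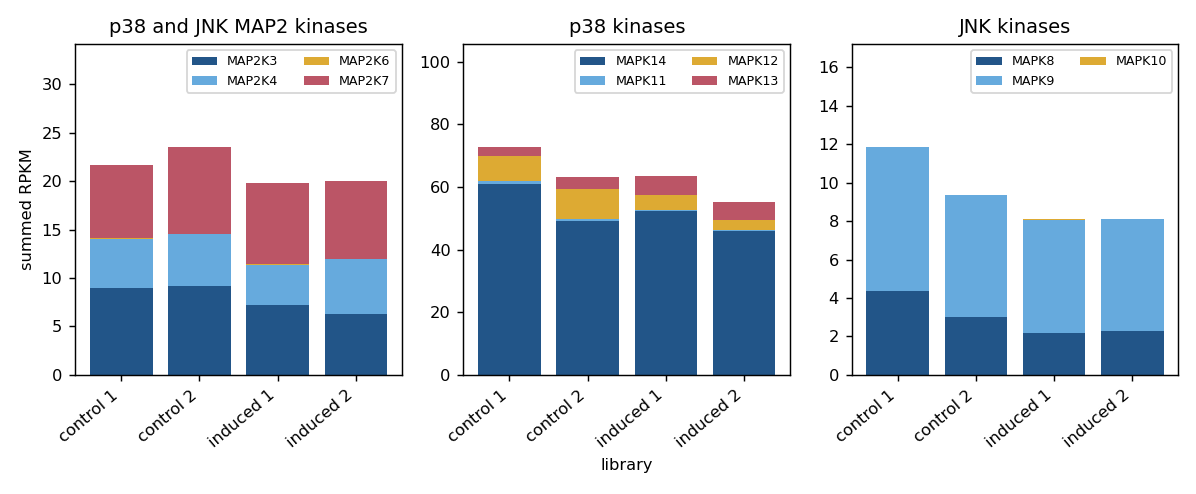
Summed RPKM in each library of the MAP2 kinases for p38 and JNK, the p38 kinases and the JNK kinases, with bars split by gene and starting at 0 (each panel has its own axis). MAPK14 fills most of each p38 bar, MAPK13 takes a larger and MAPK12 a smaller part after induction, MAPK9 exceeds MAPK8 throughout, and MAP2K6 is too low to see.

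The 9 lists of other genes around the cascade held 88 genes, of which 83 were tested. In these lists 21 rose (25.3%) and 16 fell (19.3%), where 12.2% of all tested genes rose and 26.7% fell, and the same background applies to the counts of each list. Their median log2 change was 0.06, against -0.21 over all tested genes. Of 18 other stress MAP3 kinases and partners, 2 rose and 1 fell, so most kinases at the level of MAP3K4 were not called. MAP3K10 (MLK2) rose from 3.95 ± 1.33 to 11.9 ± 1.61 RPKM (limma adjusted p = 0.0013). MAP3K1 (MEKK1) fell from 4.88 ± 0.39 to 1.82 ± 0.02 RPKM (adjusted p = 0.00258). TAB2, which links ubiquitin chains to the kinase TAK1, went from 20.9 ± 2.06 to 36.7 ± 10.7 RPKM (adjusted p = 0.0398), a call that ended without untreated control 1 (0.171), untreated control 2 (0.0913) or GADD45g induced 2 (0.307) and with no filter (0.143).

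Scaffolds, which hold the kinases of a cascade together, moved upward where they were called: 3 of 5 tested rose. The other tested scaffolds, ARRB2 and MAPK8IP2, had log2 changes of 0.62 and 0.16 and were not called. ARRB2 passed after each of the 4 other scalings (adjusted p = 0.0153 to 0.0244) and with voom (0.0447). SH3RF1 (POSH) rose from 0.892 ± 0.011 to 3.81 ± 0.11 RPKM (log2 change 1.34, limma adjusted p = 0.000653). SPAG9 (JIP4), which binds p38 and JNK, rose 2.16-fold (log2 change 1.05, adjusted p = 0.00384). MAPK8IP3 (JIP3) rose from 9.27 and 15.8 RPKM to 29.5 and 25.7 RPKM (adjusted p = 0.0077), but not without untreated control 1 (0.0631) or GADD45g induced 1 (0.054), or with no filter (0.0861).

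Downstream of p38, 2 of 7 kinases rose and 1 fell. The largest of these changes was in MKNK2, a kinase of the translation factor eIF4E, which rose from 12.04 and 15.7 RPKM to 68.4 and 57.9 RPKM (log2 change 2.12 ± 0.24, limma adjusted p = 9.29e-05). RPS6KA4 (MSK2), a kinase of histone H3 and CREB, fell from 8.33 ± 0.58 to 2.85 ± 0.47 RPKM (adjusted p = 0.00101). MAPKAPK2 and MAPKAPK3, the best known p38 substrates, were at 48.4 ± 4.59 and 50.0 ± 6.48 RPKM in the controls and 41.6 ± 2.81 and 39.7 ± 4.53 RPKM after induction, and were not called. These and APEX1, GADD45GIP1, RELA and SMAD3 below were named after their values were seen.

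Among 10 tested transcription factors that p38 or JNK phosphorylates, 4 rose and 2 fell. JUND rose 6.41-fold, from 15.6 ± 5.36 to 99.8 ± 12.3 RPKM (log2 change 2.64, limma adjusted p = 5.23e-05), beside JUN at 18.9-fold. Of 10 tested phosphatases of these kinases, 5 rose and 2 fell. Among the latter DUSP2, a nuclear MAP kinase phosphatase, went from 1.93 and 2.05 RPKM to 0.247 and 0.0972 RPKM (adjusted p = 0.000836), while DUSP1 rose 23.5-fold.

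Of 10 ERK and ERK5 cascade kinases, the parallel branch, 1 rose and 1 fell. MAP2K1 (MEK1) rose from 14.8 ± 2.94 to 42.3 ± 11.6 RPKM (log2 change 1.446 ± 0.27, limma adjusted p = 0.00164), and MAP3K8 fell from 12.3 ± 0.12 to 4.82 ± 0.62 RPKM (adjusted p = 0.00151). The difference between the branches was not tested.

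GADD45 proteins also bind cell cycle and repair proteins. Of 7 tested genes for such partners, 5 fell and 1 rose. CCNB1 (cyclin B1) fell 6.33-fold, CDK1 4.17-fold, PCNA 3.40-fold and APEX1, a base excision repair nuclease, 3.37-fold. CDKN1A (p21) rose 43.1-fold, from 9.17 ± 3.03 to 395 ± 76.8 RPKM (limma adjusted p = 6.95e-07). GADD45GIP1, a mitochondrial ribosome protein that binds GADD45G, fell from 45.3 ± 7.24 to 26.7 ± 3.01 RPKM (adjusted p = 0.0325). Of 14 tested transcriptional regulators of GADD45 genes, 2 rose (ATF3 and RELA) and 4 fell, among them MYC, BRCA1 and SMAD3. ATF3 rose 16.6-fold and RELA 1.64-fold (limma adjusted p = 3.48e-06 and 0.0363), and SMAD3 fell 1.81-fold (0.0151). Values under the alternative settings are not given for RELA and SMAD3. MYC, a repressor of GADD45A, fell 29.3-fold and BRCA1 4.02-fold.

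**Figure D4:**
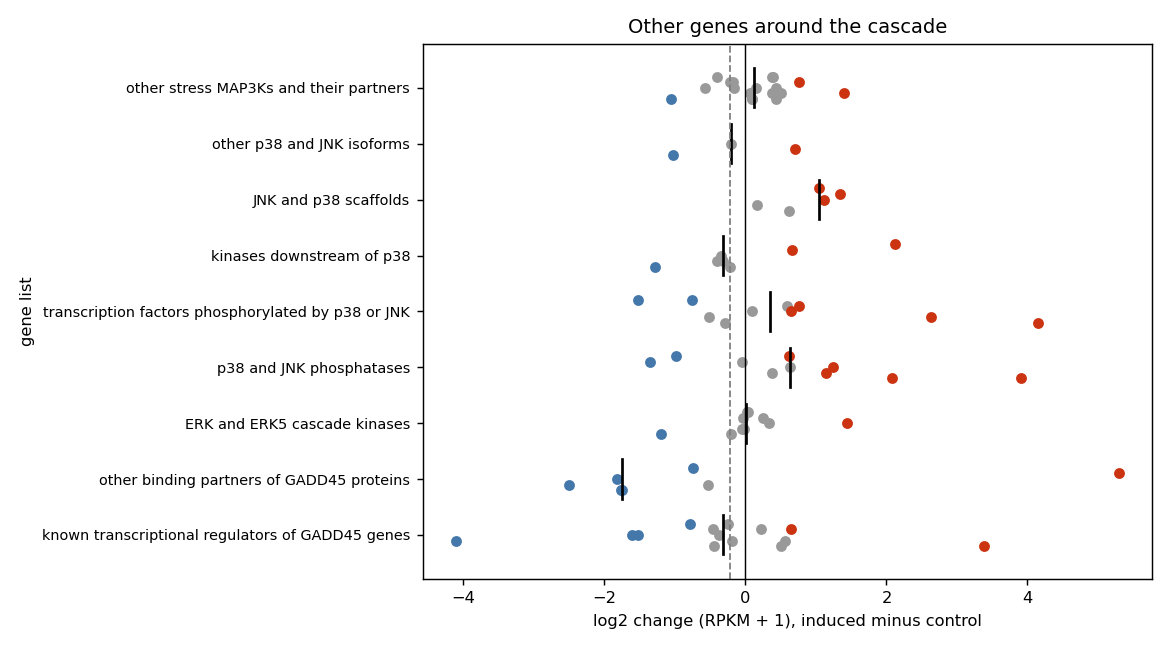
Log2 change in RPKM + 1 (induced minus control) of the tested genes of 9 lists, 1 point per gene, with red for a rise and blue for a fall that passed the threshold, black bars for list medians and a dashed line for the median of all tested genes. Most MAP3 kinases and ERK cascade kinases lie within 1 log2 unit of 0, while single genes such as JUN, DUSP1 and CDKN1A lie beyond 3.

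The genes most like each GADD45 gene were found by Pearson's r of log2(RPKM + 1) over the 4 libraries, among 3741 protein-coding genes with a range of at least 1. This r describes the shape over 4 points in 2 groups and not the size of a change. The genes were picked by r over these same libraries, so a like order of the libraries follows from the choice. For GADD45G they were GZF1 (r = 0.9998), ITGAV (0.9998) and CLDND1 (0.9996), and 82 genes had r above 0.99. All 3 were higher in untreated control 1 than in control 2, as GADD45G was, with ITGAV at 2.95 and 1.90 RPKM in the controls and 7.33 and 6.73 RPKM after induction. For GADD45A they were BASP1 (0.9974), ATG101 (0.9959) and DDAH2 (0.9957), and 11 genes had r above 0.99. These 3 were higher in the first library of each group than in the other, as GADD45A was. None of them was called (limma adjusted p = 0.0712 to 0.114). For GADD45B they were IMP4 (0.99999), CCT5 (0.99996) and SLC35F2 (0.99995), and 531 genes had r above 0.99.

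**Figure D5:**
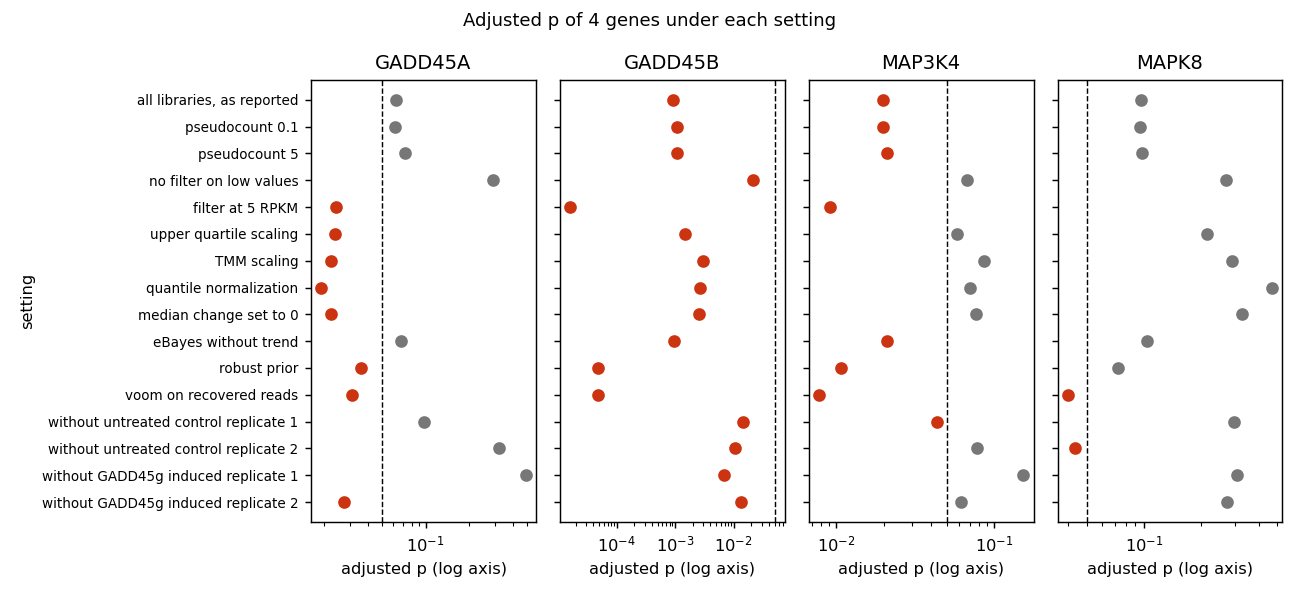
Adjusted p on a log axis for GADD45A, GADD45B, MAP3K4 and MAPK8 under each setting except the replicate block. Red points lie below the threshold of 0.05 (dashed line) and grey points above it. MAPK8 has no point for the filter at 5 RPKM. GADD45B stays below the threshold throughout, while GADD45A and MAP3K4 cross it in opposite directions when the libraries are rescaled.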

How the data were processed

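Per the file headers, the authors deposited RPKM values, 1 per Ensembl gene ID and library. TopHat, Cuffnorm, Cuffdiff and hg19 are named, per the submitters' processing notes, without versions or roles. The values were whole multiples of 1 read for 100.0% of low values (up to 20 reads, within 0.01 reads) where gene models matched GENCODE 29, so depths and reads could be recovered. Of 10818 IDs with a mean of at least 1 RPKM, 1120 took their length from the model. For 9697 the length was solved as one that gave whole reads, nearest the model length where there was one. Such reads are fixed only up to a whole multiple, and voom rests mostly on them. The file of GADD45g induced 1 ends after 27332 of 57820 IDs, and only genes listed in all 4 files were used, which hold 93.3% of protein-coding IDs.

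Where several IDs had 1 symbol their RPKM were added. The 10771 genes whose mean reached 1 RPKM were tested with limma 3.58.1 (R 4.3.3) on log2(RPKM + 1), which understates changes of low genes, with eBayes and trend, two-sided, and Benjamini-Hochberg adjustment over all tested genes at 0.05. Folds are ratios of mean RPKM. Intervals from reads cover counting error only. If the replicate experiments shared a culture, p-values measure only the spread between libraries. The code was tested on simulated data, in which far fewer genes changed than in these libraries. There 27.2% of changes of 1 log2 unit were called, and 98.0% of changes of 2 log2 units. A gene that was not called may therefore still have changed by 1 log2 unit or less. Genes named by rule are the 10 members, up to 4 genes per list with the smallest adjusted p, and the 3 most similar genes for each GADD45 gene. Some genes of the lists are counted but not reported here by name. Members and lists were chosen with earlier results of these data known. The sequences come from RefSeq (GRCh38.p14) and GENCODE 29, another build than that of the files; 9 of the 10 genes had a promoter entry, with GADD45A missing.

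There were 16 alternatives: pseudocounts of 0.1 and 5, all genes kept or only those with a mean of 5 RPKM, scaling to the upper quartile, by TMM (trimmed mean of M values, computed on RPKM), by quantiles or to a median change of 0, eBayes without trend or with a robust prior, a replicate block, voom on recovered reads, and each library left out.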

Additional observations from a re-analysis of the deposited data

How the results depend on the processing

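GADD45G and GADD45B kept their direction and their call under all 16 alternatives. For GADD45G the limma adjusted p was 0.0475 with a robust prior and 0.0232 with no filter, against 9.74e-06 as reported. With 1 gene called higher and 2 lower as reported, the counts became 2 higher and 1 lower after each of the 4 other scalings. They were 2 higher and 2 lower with a filter at 5 RPKM and with a robust prior, 2 higher and 3 lower with voom, and 1 higher and 1 lower with no filter. Leaving out a library gave 1 to 2 higher and 1 to 2 lower. The cause of these moves was not tested.

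Signs of genes near 0 turned. MAP2K4 was at 0.058 after upper quartile scaling, 0.12 after TMM scaling, 0.18 after quantile normalization, 0.12 with the median set to 0 and -0.28 to 0.095 with a library left out. MAP2K7 was at 0.14, 0.21, 0.19 and 0.19 under the same 4 scalings, and -0.13 to 0.088 with a library left out, with 0.00063 without GADD45g induced 2. MAPK14 was at 0.017 after upper quartile scaling, 0.096 after TMM scaling and 0.054 with the median set to 0. MAPK9 was at 0.015 after TMM scaling, 0.037 after quantile normalization and 0.0038 with the median set to 0. MAP2K2 was at -0.0075 without untreated control 1 and 0.51 without untreated control 2. MAPK8 and MAPK13 were not among the genes tested with a filter at 5 RPKM.

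With no filter, 13 other pathway genes rose in place of 21. Over all genes, 1314 rose and 2871 fell as reported, and 823 rose and 1639 fell with no filter. Leaving out a library gave 798 to 1133 higher and 1766 to 2449 lower. After TMM scaling 1917 rose and 2045 fell.

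The replicate block, which pairs libraries by title suffix, gave 2 genes higher and 2 lower, with GADD45A passing (adjusted p = 0.00569), and 1594 higher and 3393 lower over all genes. The difference between libraries 1 and 2 correlated between the groups over genes (r = 0.35). The first libraries also share the epithelial transcripts. No label says that libraries with the same suffix share a day or culture, and there are 2 pairs, so the block is given as an alternative.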
